A study of Mus musculus with 6 samples.

Results

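Regulatory T cells are CD4+ T cells that hold immune responses in check, and 10 genes that mark them or carry out their work were followed in CD4+ T cells sorted from mouse liver. The genes were Foxp3, Ikzf2, Ikzf4, Il2ra, Tnfrsf18, Nrp1, Lrrc32, Il10, Izumo1r and Capg, chosen by name from the 23505 gene rows of a table of raw counts. All 10 were found, none had a second copy row, and 9 had enough counts to be tested, among 10509 genes tested in all. The ConA+SIM group was given simvastatin, a cholesterol-lowering statin, by gavage at 30 mg/kg, and the ConA group was given phosphate-buffered saline. Both groups were wild-type mice injected with concanavalin A (ConA), a lectin that activates T cells and injures the liver, and were gavaged daily for 5 days beforehand, 1 h beforehand and 24 h afterwards. Each group had 3 samples with 1 library each, sorted as CD3+ NK1.1- CD4+ CD8- cells. Whether the 3 samples of a group were separate animals is not stated, so the p-values cover only sample-to-sample spread and part of it may be technical. The sources used here give no strain, age, sex or dose of ConA, and no group without ConA was analysed here.

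In mouse and human, Foxp3 is the transcription factor that establishes and maintains the regulatory lineage, and it acts with partners that include the Ikaros family proteins Helios (Ikzf2) and Eos (Ikzf4). Regulatory T cells carry a high-affinity interleukin-2 receptor through its alpha chain CD25 (Il2ra) and depend on interleukin-2 made by other cells. They restrain other cells through contact receptors, through activation of TGF-beta at their surface and through interleukin-10. Several of the 10 genes are also made by other cells: activated conventional T cells also express Il2ra and Tnfrsf18, other T cell subsets and myeloid cells make Il10, endothelial and plasmacytoid dendritic cells carry Nrp1, and macrophages express Capg.

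The series title names NFATC3, a factor of the calcium-dependent NFAT family, which binds DNA at a short core motif. The sequences before the start sites of Foxp3, the defining factor of the lineage, and of the activation-inducible receptor genes Il2ra and Tnfrsf18 are therefore shown. Each is the 250 bases upstream of a RefSeq start site (GRCm38.p6), 5′ to 3′ on the plus strand, which is the strand of the gene, and capitals mark GGAAA or its reverse complement.
Foxp3, first start site (chrX:7579426-7579675): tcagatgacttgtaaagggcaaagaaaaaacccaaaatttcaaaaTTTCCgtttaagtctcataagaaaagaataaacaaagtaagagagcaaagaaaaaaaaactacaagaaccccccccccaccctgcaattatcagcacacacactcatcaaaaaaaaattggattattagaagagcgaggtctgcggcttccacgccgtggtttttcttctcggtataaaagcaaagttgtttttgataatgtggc
Foxp3, second start site (chrX:7580233-7580482): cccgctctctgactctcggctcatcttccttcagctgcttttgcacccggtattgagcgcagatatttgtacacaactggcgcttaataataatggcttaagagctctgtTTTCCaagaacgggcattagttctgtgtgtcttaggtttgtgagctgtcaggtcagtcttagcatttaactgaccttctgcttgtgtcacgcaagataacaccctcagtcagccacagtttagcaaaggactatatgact
Il2ra (chr2:11642542-11642791): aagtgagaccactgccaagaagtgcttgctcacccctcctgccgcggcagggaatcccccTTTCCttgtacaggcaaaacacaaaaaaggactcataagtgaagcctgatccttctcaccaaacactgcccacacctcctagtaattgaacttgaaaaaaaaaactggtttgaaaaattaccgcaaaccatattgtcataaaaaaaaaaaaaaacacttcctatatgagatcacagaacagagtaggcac
Tnfrsf18 (chr4:156026072-156026321): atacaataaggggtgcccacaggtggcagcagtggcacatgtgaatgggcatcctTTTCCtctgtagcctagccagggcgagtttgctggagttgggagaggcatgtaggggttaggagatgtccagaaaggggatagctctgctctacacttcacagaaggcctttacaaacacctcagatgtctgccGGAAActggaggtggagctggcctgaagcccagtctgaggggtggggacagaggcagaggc
The core was found 1 time in each Foxp3 window, 1 time in the Il2ra window and 2 times in the Tnfrsf18 window. It was also present 1 time in the windows of Nrp1 and Izumo1r and 0 times in that of Capg. On either strand 55.6% of 32817 windows of this length hold it, so its presence does not set these genes apart. The interleukin-2-responsive STAT5 palindrome TTCNNNGAA occurred 1 time in the second Foxp3 window and 1 time in the Tnfrsf18 window, against 7.01% of all windows. The forkhead core TGTTTAC, the kind of motif Foxp3 binds, occurred in none of the 7 windows searched, against 3.16% of all windows. The 2 other motifs were searched on both strands as well, and a match is a match of letters only.

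Libraries held between 17549429 and 25031862 counts. ConA+SIM replicate 2 stood apart: among genes averaging at least 20 CPM (counts after edgeR scaled each library by its TMM-adjusted total) in the other 5 libraries, 484 of 7073 (6.84%) had 0 counts in it. That share was 0.737% and 0.241% in ConA+SIM replicates 1 and 3, and 1.90%, 2.26% and 0.469% in ConA replicates 1 to 3. All 12 T cell markers had counts in every library, with Cd4 at 562, 441 and 469 CPM in ConA+SIM replicates 1 to 3 and 545, 485 and 766 CPM in ConA replicates 1 to 3. Of these 12 markers 8 had higher values in ConA+SIM, with a median log2 fold change of 0.26. Cd3d, Cd3g and Cd247, which encode chains of the T cell receptor complex, lay wholly above ConA without passing the edgeR test. They were 25.0% of the 12 markers, where 9.18% of all tested genes lay wholly above. Cd3e, of the same complex, had 171, 295 and 156 CPM in ConA+SIM and 223, 154 and 409 CPM in ConA. These values overlapped, with a log2 fold change of -0.34. Cd8a and Cd8b1, the genes of CD8, which the sort was set to exclude, had at most 15.9 and 54.1 CPM. Klrb1c, the gene of NK1.1, an antigen the sort also excluded, had 43.5, 43.5 and 39.0 CPM in ConA+SIM and 6.69, 17.6 and 19.98 CPM in ConA.

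**Figure D1:**
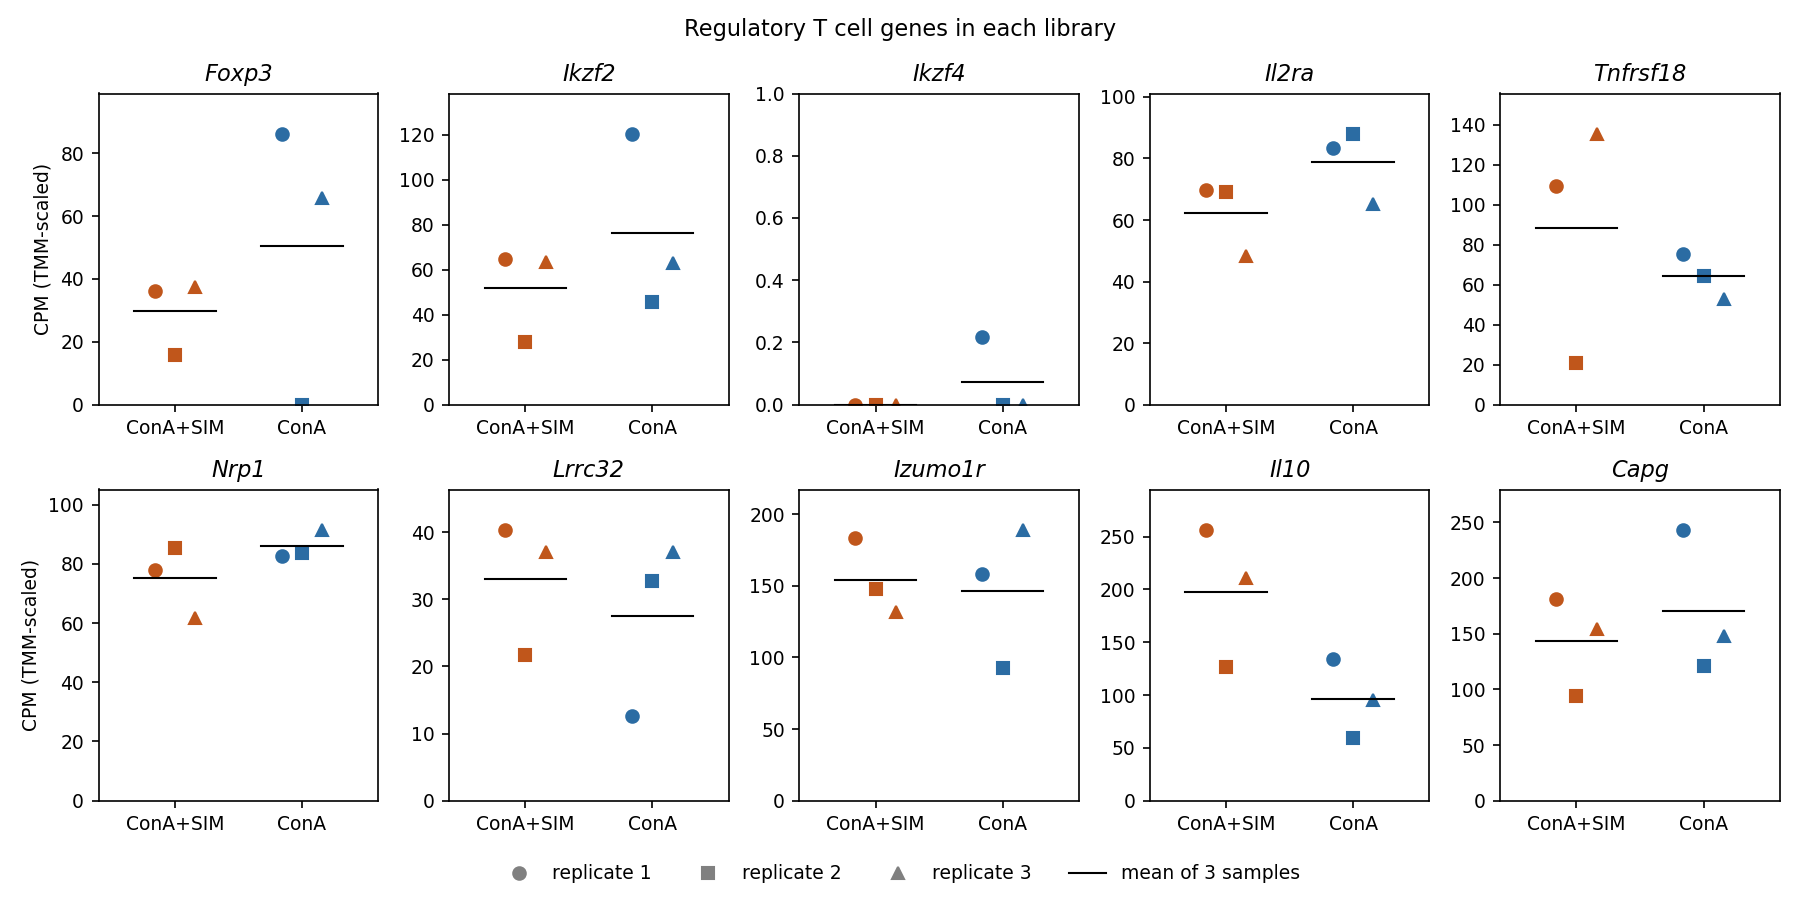
CPM of the 10 regulatory T cell genes (y axis, linear from 0) in the 3 ConA+SIM and 3 ConA libraries, with symbols for replicate numbers and a line at the mean. Foxp3 is at 0 in ConA replicate 2, Ikzf4 is at or near 0 throughout, and the Il10 mean is 198 CPM in ConA+SIM and 96.2 CPM in ConA.

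Setting ConA+SIM against ConA asks what simvastatin did to these genes. None of the 9 tested genes passed the test (edgeR quasi-likelihood test, adjusted p under 0.05), where 57 of all tested genes (0.542%) passed, all of them higher. The gene nearest to the threshold was Il10, which averaged 198 ± 65.5 CPM in ConA+SIM and 96.2 ± 37.4 CPM in ConA (SD, n = 3 each). At an unadjusted p under 0.05 the edgeR test picked Il10 alone among the 9, against 8.85% of all tested genes. DESeq2 likewise called Il10 alone, where it called 5.28% of all tested genes, and limma-voom called 0 of the 9 with or without sample quality weights. In none of the 9 did the 3 ConA+SIM values lie wholly above or wholly below the 3 ConA values, a separation seen in 17.8% of all tested genes. Values were higher in ConA+SIM for 4 genes and lower for 5, and the median log2 fold change of the 9 was -0.19, beside -0.04 over all tested genes. The 10 genes summed to 1019, 609.9 and 879 CPM in ConA+SIM replicates 1 to 3 and to 996, 587 and 808 CPM in ConA replicates 1 to 3. In bulk samples, fewer cells of a type and less RNA per cell cannot be told apart, so no value here is a count of regulatory T cells.

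Among the transcription factors, Foxp3 (chromosome X, 7579676 to 7595243, GRCm38) had 36.2, 15.9 and 37.6 CPM in ConA+SIM replicates 1 to 3 and 86.1, 0 and 65.7 CPM in ConA replicates 1 to 3. ConA replicates 1 and 3 therefore lay above all 3 ConA+SIM libraries, whereas ConA replicate 2 lay below them. The 0 in ConA replicate 2 stood for 0 counts in a library of 18360352, which allows up to 3 counts or 0.151 CPM, and the other 5 libraries held between 272 and 1993 counts of Foxp3. In this library 159 of 7025 genes that averaged at least 20 CPM elsewhere were at 0, and whether the 0 of Foxp3 came from the cells or from the counting behind the table was not tested. The bound covers counting error only. That same library held 1746 counts of Il2ra, 1273 of Tnfrsf18 and 1840 of Izumo1r, so the other surface genes were present in it. The log2 fold change of Foxp3 was -0.76 ± 1.55 (SE, edgeR adjusted p = 0.999), with a 95% interval from -4.28 to 2.76, which spans changes in both directions. Without ConA replicate 2 it was -1.36 (adjusted p = 0.595). With both replicates numbered 2 left out it was -1.04 (adjusted p = 0.46). By limma-voom, it was 2.06, in the opposite direction (adjusted p = 0.722). With the replicate number added to the edgeR model it was 0.54. The sign of the Foxp3 difference thus depended on the tool and on the model, and its size on which libraries were kept.

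Ikzf2, which encodes Helios and is found in many regulatory T cells of thymic origin (chromosome 1, 69531207 to 69687351), had 64.6, 28.0 and 63.3 CPM in ConA+SIM and 120.3, 45.8 and 63.0 CPM in ConA. Only ConA replicate 1 stood above the ConA+SIM libraries, and replicate 2 was the lowest of its group in each. The log2 fold change was -0.55 ± 0.52 (edgeR adjusted p = 0.997), and without ConA replicate 1 it was -0.08. Ikzf4, which encodes Eos (chromosome 10, 128630839 to 128669671), had 5 counts in ConA replicate 1 and 0 in the other 5 libraries. It could not be tested and, at this depth, was not detectable in ConA+SIM above 0.16, 0.175 and 0.16 CPM in replicates 1 to 3, the level of 3 counts. Both other lymphoid members of the family were abundant: Ikzf1, which encodes Ikaros, had 603, 457 and 482 CPM in ConA+SIM and 695, 628 and 829 CPM in ConA. Ikzf3, which encodes Aiolos, had 260, 214 and 230.0 CPM in ConA+SIM and 298, 529 and 342 CPM in ConA. Neither passed the edgeR test (Ikzf1 -0.48 ± 0.20, adjusted p = 0.516; Ikzf3 -0.73 ± 0.26, adjusted p = 0.404, both on the log2 scale by edgeR), although DESeq2 called Ikzf3 (adjusted p = 0.0331), and in both the ConA+SIM values lay wholly below the ConA values.

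Among the receptors, Il2ra (chromosome 2, 11642792 to 11693194) had 69.8, 69.3 and 48.2 CPM in ConA+SIM and 83.5, 87.9 and 65.3 CPM in ConA. The groups overlapped narrowly, since ConA replicate 3 lay below 2 of the ConA+SIM libraries. Its log2 fold change was -0.34 ± 0.38 (edgeR adjusted p = 0.999), and the 95% interval, in linear fold 0.44 to 1.42, includes differences in both directions. The replicates of Il2ra spread less than those of Foxp3, with a coefficient of variation of 19.8% in ConA+SIM and 15.2% in ConA, against 40.7% in ConA+SIM and 88.9% in ConA for Foxp3.

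Tnfrsf18 encodes GITR, a costimulatory receptor that regulatory T cells carry at rest and other T cells gain on activation (chromosome 4, 156026322 to 156028894). It had 109, 20.7 and 135 CPM in ConA+SIM replicates 1 to 3 and 75.4, 64.1 and 52.9 CPM in ConA. Replicates 1 and 3 of ConA+SIM lay above every ConA library and replicate 2 lay below every one. The log2 fold change was 0.46 ± 0.61 (edgeR adjusted p = 0.999). Without ConA+SIM replicate 2 it was 0.93 (adjusted p = 0.497), and without ConA+SIM replicate 3 it was 0.02. After removal of each library's trend with transcript length it was close to 0, at 0.004. Its transcript is 1189 nt long, the shortest of the 10.

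Nrp1, a semaphorin and growth factor receptor found on regulatory T cells of thymic origin in the mouse (chromosome 8, 128358591 to 128505476), had the lowest coefficient of variation of the 9 genes, 16.2% in ConA+SIM and 5.59% in ConA. It had 78.1, 85.5 and 61.7 CPM in ConA+SIM and 82.65, 83.6 and 91.4 CPM in ConA. The ranges overlapped, and the log2 fold change was -0.19 ± 0.34 (edgeR adjusted p = 0.999), with an interval in linear fold from 0.516 to 1.48. Sinusoidal endothelial cells also carry Nrp1. Their 14 markers summed to between 495 and 939 CPM in ConA+SIM and to 471, 2563 and 872 CPM in ConA replicates 1 to 3, and the part of such cells in the level of Nrp1 was not tested.

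Lrrc32 encodes GARP, which holds latent TGF-beta at the surface of activated regulatory T cells (chromosome 7, 98489305 to 98501831). It had 40.3, 21.6 and 37.0 CPM in ConA+SIM and 12.6, 32.7 and 37.1 CPM in ConA. ConA replicate 1, which had the most Foxp3, had the least Lrrc32. Its log2 fold change was 0.26 ± 0.73 (edgeR adjusted p = 0.999) and turned to -0.10 without ConA replicate 1. Platelets and endothelial cells carry GARP as well. Of 8 platelet markers, at least 5 were at 0 counts in each library, and their sum was at most 32.5 CPM.

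Izumo1r encodes folate receptor 4, a surface marker of mouse regulatory and anergic T cells that also serves as the egg receptor for sperm (chromosome 9, 14885814 to 14903951). It had 183, 148 and 131 CPM in ConA+SIM and 158, 92.7 and 189 CPM in ConA, with ConA replicate 2 lowest and the groups interleaved. Its log2 fold change was 0.07 ± 0.33 (edgeR adjusted p = 0.999). Its 95% interval, in linear fold 0.632 to 1.75, includes both directions. Without ConA replicate 2 the value was -0.19, and without ConA+SIM replicate 1 it was -0.07.

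Il10 encodes interleukin-10, the anti-inflammatory cytokine made by regulatory T cells, type 1 regulatory cells and other T helper subsets (chromosome 1, 131019845 to 131024970). It had 256, 127 and 211 CPM in ConA+SIM replicates 1 to 3 and 134, 59.0 and 95.6 CPM in ConA replicates 1 to 3. Replicates 1 and 3 of ConA+SIM lay above every ConA library, and replicate 2 lay above 2 of the 3. Its log2 fold change was 1.04 ± 0.39 (edgeR quasi-likelihood test, adjusted p = 0.433), with a 95% interval from 0.17 to 1.91, which is not adjusted for the number of genes. Leaving out 1 library at a time gave values from 0.77 without ConA replicate 2 to 1.34 without ConA replicate 1, all in the same direction and none past the threshold. With both replicates numbered 2 left out the value was 1.03, and after the length trend was removed it was 0.74 (adjusted p = 0.714). DESeq2 gave 1.02 with an adjusted p = 0.0408, the lowest over the alternatives tried, of which the highest was 0.754 without ConA+SIM replicate 1.

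Capg encodes an actin filament capping protein of regulatory T cells and macrophages (chromosome 6, 72538282 to 72562983). It had 181, 94.2 and 154 CPM in ConA+SIM and 243, 121 and 148 CPM in ConA. Again replicate 2 was lowest in each group, and ConA replicate 1 was the highest of all. The log2 fold change was -0.25 ± 0.36 (edgeR adjusted p = 0.999), and it was 0.07 without ConA replicate 1. ConA replicate 1 also had the highest sum of 16 Kupffer cell, macrophage and monocyte markers, at 2979.9 CPM. That sum was 1843.5, 629 and 1814 CPM in ConA+SIM replicates 1 to 3 and 1435 and 1341 CPM in ConA replicates 2 and 3. Capg had its lowest level in the library with the lowest of these sums, ConA+SIM replicate 2, and the part of such cells in the level of Capg was not tested.

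**Figure D2:**
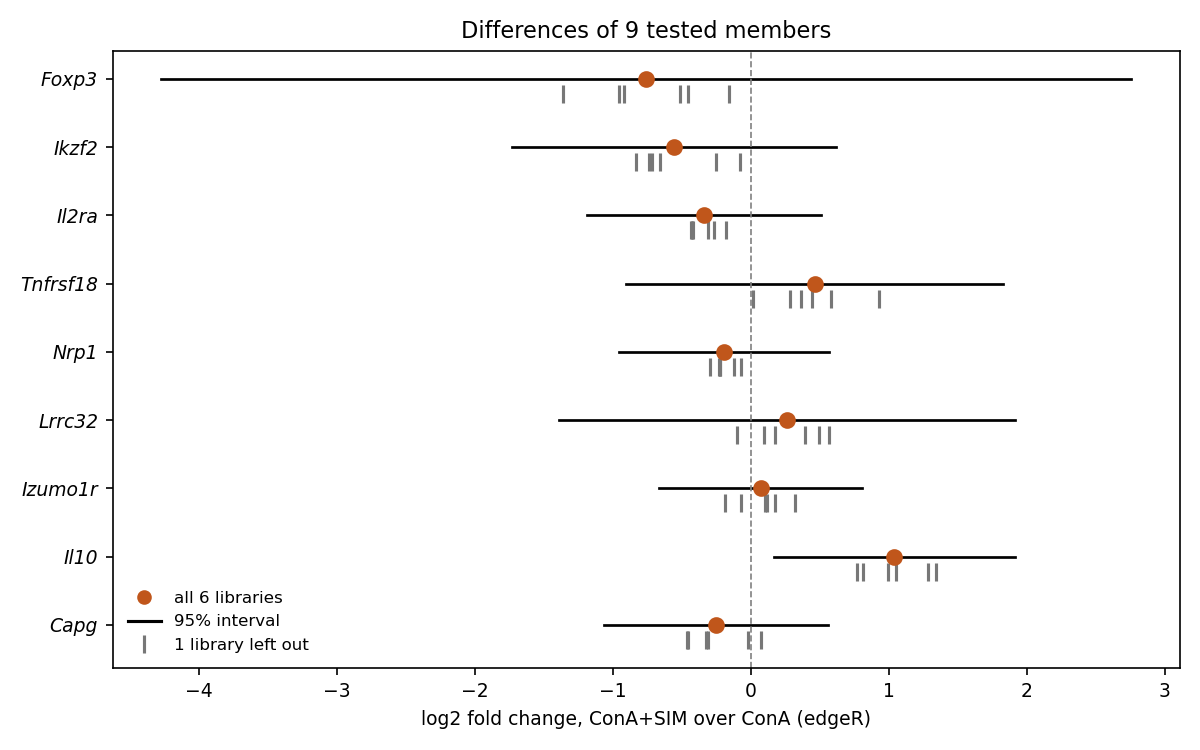
Log2 fold change of ConA+SIM over ConA (x axis, edgeR) for the 9 tested genes, with its 95% interval as a line and grey ticks for the fits without 1 library. The interval of Il10 alone lies above 0, from 0.17 to 1.91 before adjustment, and that of Foxp3 is the widest, from -4.28 to 2.76.

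Replicate 2 had the lowest value of its group for most of the genes. In ConA+SIM, replicate 2 was the lowest of its group for 6 of the 9 tested genes (Foxp3, Ikzf2, Tnfrsf18, Lrrc32, Il10 and Capg). In ConA, replicate 2 was the lowest for 5 of the 9 (Foxp3, Ikzf2, Izumo1r, Il10 and Capg). Il2ra and Nrp1 were at their lowest in replicate 3 and replicate 1 of ConA and in replicate 3 of ConA+SIM. The labels do not say whether the numbers share anything. Over all tested genes, the deviations of the libraries numbered 2 from their group means correlated at 0.009.

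Per kilobase of transcript, the scale on which levels of different genes can be compared, Il10, Izumo1r and Capg had the highest means over the libraries of each group, followed by Tnfrsf18. In ConA+SIM, Il10 averaged 151, Izumo1r 119, Capg 102 and Tnfrsf18 74.3 CPM per kb. The ConA averages were 73.4 for Il10, 114 for Izumo1r, 122 for Capg and 54.0 CPM per kb for Tnfrsf18. These 4 genes also have the 4 shortest transcripts of the 10, from 1189 to 1400 nt. Nrp1 followed at 20.9 and Il2ra at 14.1 CPM per kb in ConA+SIM, and at 23.9 and 17.9 in ConA. Foxp3 averaged 7.8 CPM per kb in ConA+SIM and 13.2 in ConA, Lrrc32 7.21 in ConA+SIM and 6.0 in ConA, and Ikzf2 5.6 in ConA+SIM and 8.23 in ConA. By this measure Il10 had rank 1, 2 and 1 in ConA+SIM replicates 1 to 3 and rank 3, 4 and 3 in ConA replicates 1 to 3. Capg had rank 3 in each ConA+SIM library and rank 1, 1 and 2 in ConA. Within a group the order of Il10, Izumo1r and Capg changed between libraries, as did that of Foxp3 and Lrrc32. Tnfrsf18 had rank 2 in ConA+SIM replicate 3, above Izumo1r and Capg, and rank 3 in ConA replicate 2, above Il10. Foxp3 had rank 6 in ConA replicates 1 and 3, above Il2ra at rank 7, and its lower ConA mean rests on the 0 in ConA replicate 2. These neighbours in the order were therefore not separated beyond the spread between libraries.

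Ratios of counts within a library do not depend on how libraries are scaled, and the following were chosen after the values were seen. They still carry each library's trend with transcript length, since Il10 has 1310 nt, Foxp3 3834 nt, Il2ra 4412 nt and Maf 6360 nt. After that trend was removed, the log2 fold change of Il10 went from 1.04 to 0.74 and that of Il2ra from -0.34 to -0.13. Il10 over Foxp3 was 7.06, 8.0 and 5.61 in ConA+SIM replicates 1 to 3 and 1.56 and 1.46 in ConA replicates 1 and 3. In ConA replicate 2, with Foxp3 at 0, it was at least 391 when 3 counts of Foxp3 are allowed, a bound that holds only if the 0 is a true count. Il10 over Il2ra was 3.67, 1.83 and 4.38 in ConA+SIM and 1.603, 0.671 and 1.46 in ConA. In this ratio every ConA+SIM library lay above every ConA library. Not all ratios were so ordered: Il10 over Ctla4 was 0.550, 0.365 and 0.407 in ConA+SIM and 0.388, 0.263 and 0.371 in ConA, which overlapped. Tnfrsf18 over Il2ra and Ikzf2 over Il2ra overlapped as well. Foxp3 over Il2ra was 0.519, 0.229 and 0.780 in ConA+SIM and 1.03, 0 and 1.01 in ConA, so the 2 groups were ordered only apart from ConA replicate 2. These ratios carry no test.

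**Figure D3:**
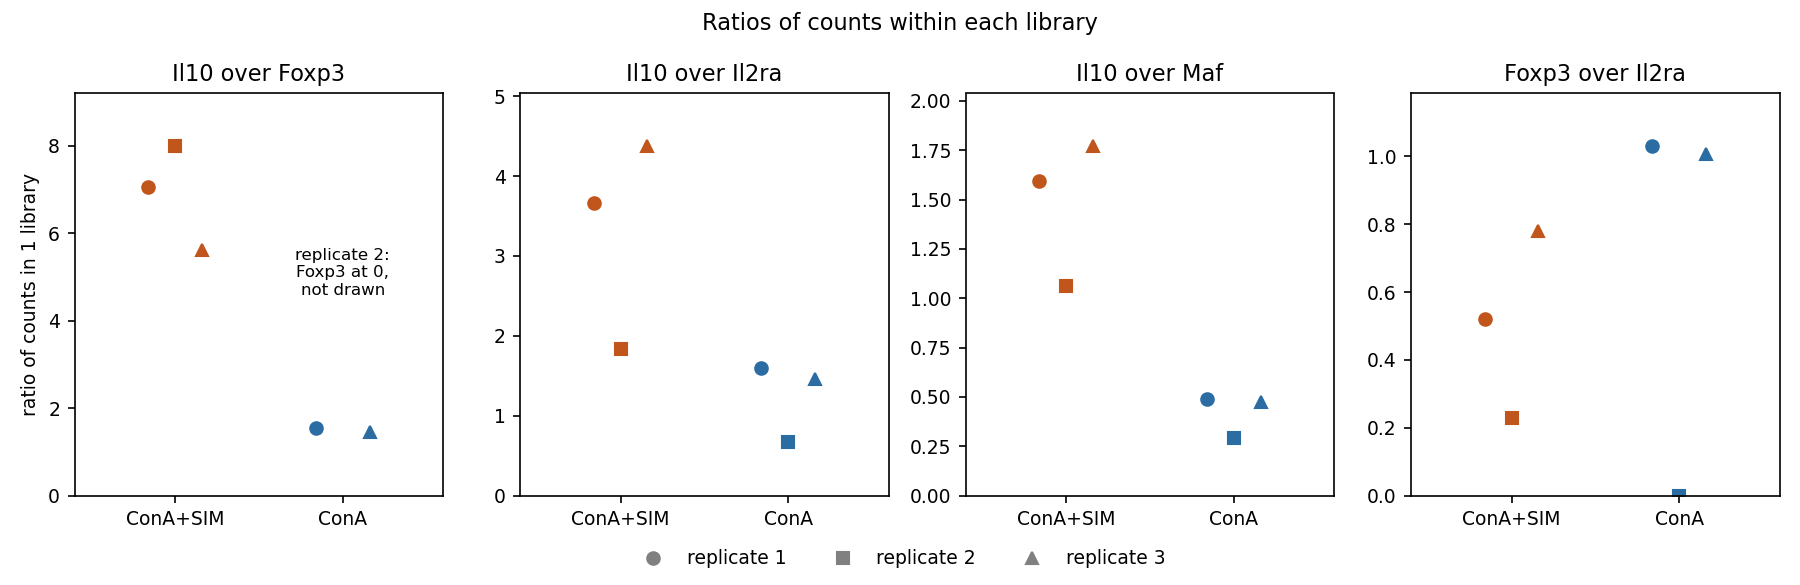
Ratios of counts within each library (y axes, linear from 0) for 4 pairs of genes, in the 3 ConA+SIM and 3 ConA libraries. Il10 over Il2ra runs from 1.83 to 4.38 in ConA+SIM and from 0.671 to 1.603 in ConA, Il10 over Maf runs from 1.06 to 1.77 in ConA+SIM and from 0.293 to 0.492 in ConA, and Il10 over Foxp3 is not drawn for ConA replicate 2.

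Genes known to act with these 10 were listed by role, 101 genes in all, of which 95 were tested. None passed the edgeR test. At an unadjusted p under 0.05 there were 14 of 95 (14.7%), against 8.85% of all tested genes. DESeq2 called 7 of 95 (7.37%), against 5.28% of all tested genes, and limma-voom called 0 with or without sample quality weights.

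Of 27 tested effector and suppressor genes of regulatory T cells, values in ConA+SIM were higher for 14 and lower for 13, with a median log2 fold change of 0.03. Ctla4, the inhibitory receptor through which these cells strip costimulatory ligands from antigen-presenting cells, had 465, 348 and 518 CPM in ConA+SIM and 345, 224 and 257 CPM in ConA. All ConA+SIM values lay above all ConA values, with a log2 fold change of 0.69 ± 0.25 (edgeR adjusted p = 0.416; DESeq2 adjusted p = 0.0392). A second row of Ctla4 held 5133 counts over the 6 libraries beside 43371 in the plain row, so its level is uncertain. Tigit, another inhibitory receptor, had 164, 160 and 164 CPM in ConA+SIM and 246, 197 and 259 CPM in ConA, all ConA+SIM values being lower (-0.53 ± 0.24, edgeR adjusted p = 0.575; -0.98 after the length trend was removed). Klrg1, a receptor of terminally differentiated effector and regulatory cells, had 58.2, 35.9 and 112 CPM in ConA+SIM and 27.2, 21.6 and 33.8 CPM in ConA. Tnfrsf1b, which encodes the TNF receptor TNFR2 that supports regulatory T cells, had 195, 116 and 143 CPM in ConA+SIM and 477, 167 and 266 CPM in ConA, and these overlapped (-1.01 ± 0.39, edgeR adjusted p = 0.468; DESeq2 adjusted p = 0.0332). S100a4, a calcium-binding protein of effector and memory cells, had 867, 468 and 541 CPM in ConA+SIM and 423, 175 and 400.4 CPM in ConA, and its log2 fold change of 0.91 (edgeR adjusted p = 0.486; DESeq2 adjusted p = 0.0319) was 0.10 after the length trend was removed. Icos, a costimulatory receptor of effector regulatory cells, had 108, 87.7 and 190.4 CPM in ConA+SIM and 169, 38.8 and 123 CPM in ConA, and its level is uncertain too, with 1556 counts in a second row beside 14919 in the plain row. Groups did not overlap in 5 of the 27 on the higher side (18.5%) and in 2 on the lower side (7.41%), beside 9.18% and 8.57% of all tested genes.

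The interleukin-2 receptor and its signalling genes had a median of -0.18 over 11 tested genes, 3 higher and 8 lower. Il2rb, the beta chain that pairs with CD25, had 466, 741 and 436 CPM in ConA+SIM and 482, 418 and 748 CPM in ConA. Il2rg, the common gamma chain, had 341, 416 and 439.9 CPM in ConA+SIM and 459, 534 and 568 CPM in ConA, and was lower throughout (-0.38 ± 0.20, edgeR adjusted p = 0.675). The kinases that the receptor uses, Jak1 and Jak3, had log2 fold changes of -0.42 ± 0.20 and -0.76 ± 0.37 (edgeR adjusted p = 0.626 each). After the length trend was removed Jak1 stood at -0.196, Jak3 at -0.616 and Il2rg at -0.54. The STAT factors that carry the signal to the Foxp3 locus averaged 57.0 ± 21.3 CPM in ConA+SIM and 63.8 ± 27.2 CPM in ConA for Stat5a, and 220.1 ± 51.2 CPM in ConA+SIM and 277 ± 77.6 CPM in ConA for Stat5b. Cish, a STAT5-induced inhibitor of the receptor, averaged 88.5 ± 41.8 CPM in ConA+SIM and 59.2 ± 12.8 CPM in ConA. The ligand gene Il2 had at most 7 counts in a library, in the plain one of its rows, and could not be tested.

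Of 33 partners of Foxp3 and regulators of its transcription, 12 had higher and 21 lower values, with a median of -0.36. Groups did not overlap in 8 of them on the lower side (24.2%) and in 0 on the higher side, beside 8.57% and 9.18% of all tested genes. The 8 were Runx3, Ikzf1, Ikzf3, Ets1, Smad3, Tet3, Usp7 and Ctbp1, a list read off after the values were seen. Runx3 was low, with 2.88, 4.38 and 2.30 CPM in ConA+SIM and 7.17, 5.09 and 23.1 CPM in ConA. Its log2 fold change was -1.88 ± 2.18 (edgeR adjusted p = 0.999), and that of Usp7 was -0.385 ± 0.231 (edgeR adjusted p = 0.793). Tet3, a DNA demethylating enzyme that acts with Tet2 on Foxp3 enhancers, had 77.5, 22.1 and 67.5 CPM in ConA+SIM and 212, 174 and 143 CPM in ConA. Its log2 fold change was -1.66 ± 0.47 (edgeR adjusted p = 0.278; DESeq2 adjusted p = 0.00148). Ctbp1, a corepressor that binds Eos, had 220.2, 147 and 127 CPM in ConA+SIM and 309, 250.2 and 356 CPM in ConA (-0.89 ± 0.28, edgeR adjusted p = 0.364; DESeq2 adjusted p = 0.0119). Ets1, which binds the Foxp3 enhancer, averaged 1196 ± 35.8 CPM in ConA+SIM and 1596 ± 271 CPM in ConA (-0.42 ± 0.17, edgeR adjusted p = 0.508). After the length trend was removed Tet3 stood at -1.42, Ctbp1 at -0.88, Smad3 at -0.798, Ikzf3 at -0.59, Ikzf1 at -0.255 and Ets1 at -0.185, none past the threshold. The list median and the shares of genes that did not overlap were taken without that step.

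Genes that induce interleukin-10 or carry its signal, Il10 itself left out, had a median of -0.21 over 11 tested genes, 2 higher and 9 lower. Maf, a transcription factor that activates Il10 in several T cell subsets, had 160.4, 120 and 119 CPM in ConA+SIM and 272, 202 and 202 CPM in ConA. All ConA+SIM values lay below all ConA values (-0.76 ± 0.27, edgeR adjusted p = 0.4; DESeq2 adjusted p = 0.0338), while Il10 had its higher mean in ConA+SIM. After the length trend was removed Maf stood at -0.46. Il10 over Maf was 1.596, 1.06 and 1.77 in ConA+SIM and 0.492, 0.293 and 0.472 in ConA. Il10ra, the ligand-binding chain of the receptor, had 105, 160.1 and 158 CPM in ConA+SIM and 315, 179 and 136 CPM in ConA, which overlapped. Bhlhe40, a factor that represses Il10, averaged 572 ± 201 CPM in ConA+SIM and 739 ± 206 CPM in ConA (-0.37 ± 0.31, edgeR adjusted p = 0.961).

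In the TGF-beta list the median was -0.23 over 15 tested genes, 7 higher and 8 lower. Tgfb1, the cytokine that GARP presents, had 97.4, 91.7 and 103 CPM in ConA+SIM and 131, 125 and 164 CPM in ConA (-0.53 ± 0.29, edgeR adjusted p = 0.714). Furin, the protease that cleaves the TGF-beta precursor, had 67.7, 113 and 62.1 CPM in ConA+SIM and 142, 159 and 153 CPM in ConA (-0.90 ± 0.33, edgeR adjusted p = 0.422). Smad3, which carries the signal to the Foxp3 enhancer, averaged 57.5 ± 34.2 CPM in ConA+SIM and 113 ± 25.4 CPM in ConA (-0.98 ± 0.54, edgeR adjusted p = 0.73). It had 73.35, 18.3 and 80.9 CPM in ConA+SIM and 86.5, 116 and 137 CPM in ConA. Without ConA+SIM replicate 2 its log2 fold change was -0.55. In these 3 of the 15 genes every ConA+SIM value was below every ConA value, and in 0 of the 15 was it the reverse, beside 8.57% and 9.18% of all tested genes. Skil, a repressor of SMAD signalling, averaged 322 ± 158 CPM in ConA+SIM and 226 ± 23.9 CPM in ConA. Of the ligands and partners of the 10 genes, 7 could be tested and all had lower values, with a median of -0.58, although Il2rb, at -0.004, turned to 0.004 with RLE scaling and by DESeq2. Of these 7, Tgfb1, Il2rb, Il2rg and Il10ra are also counted above. Sema4a, a ligand of Nrp1 that stabilises regulatory T cells in the mouse, had 85.7, 25.8 and 66.5 CPM in ConA+SIM and 113, 141 and 98.9 CPM in ConA (-0.99 ± 0.46, edgeR adjusted p = 0.608). Tnfsf18, the ligand of GITR, had 0 counts in all 6 libraries.

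**Figure D4:**
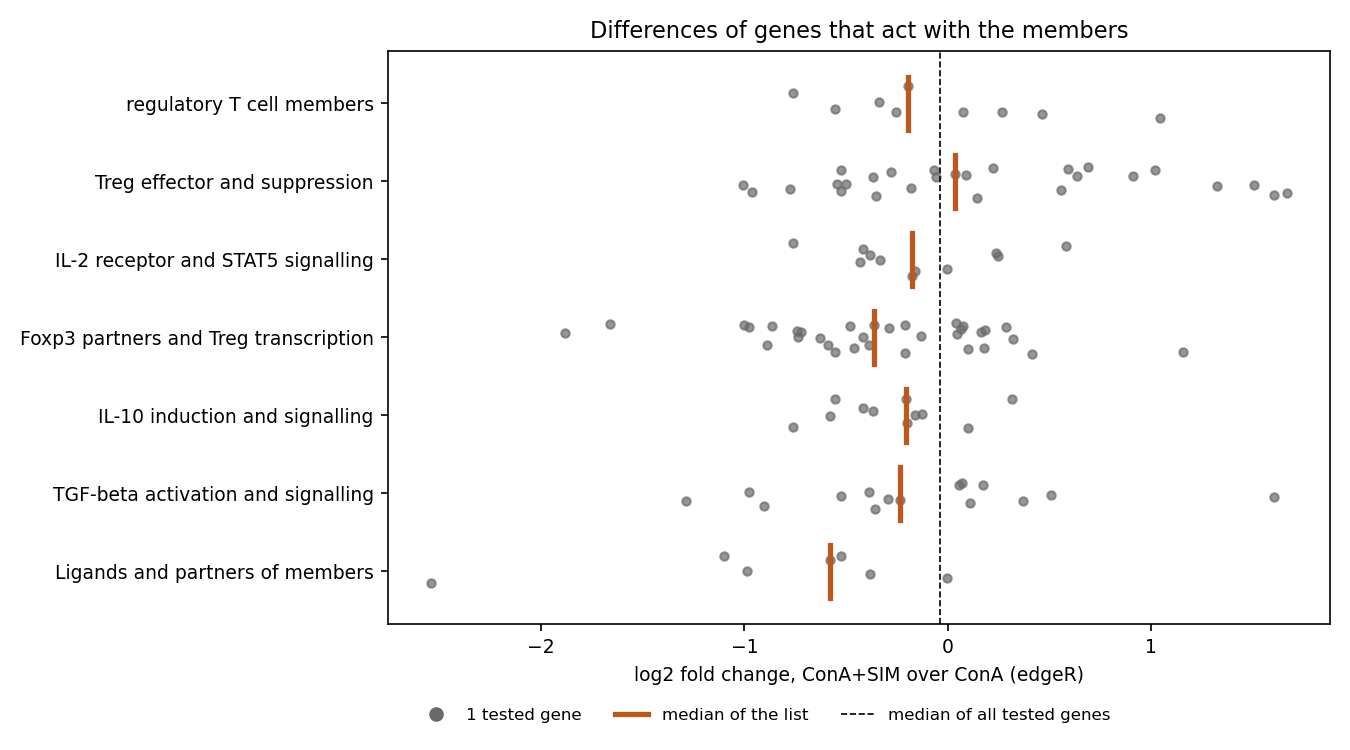
Log2 fold change of ConA+SIM over ConA (x axis, edgeR) for each tested gene of the 10 and of 6 lists of genes that act with them, with list medians as bars and the median of all tested genes, -0.04, as a dashed line. Medians run from -0.58 for the 7 ligands and partners to 0.03 for the 27 effector genes.

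Markers of other cell types that can make Il10 or the surface genes differed between libraries. NK and ILC1 markers summed to between 706 and 855 CPM in ConA+SIM and to between 291 and 421 CPM in ConA. Gzma, Klrd1, Xcl1 and Klrk1 had the highest ConA+SIM means of this list, at 306, 163, 132 and 103 CPM. Their ConA means were 110, 34.2, 65.5 and 71.0 CPM, and which cells made them was not tested. Neutrophil markers summed to between 617 and 971 CPM in ConA+SIM and to between 342 and 589.6 CPM in ConA, and erythroid markers to between 235 and 343 CPM in ConA+SIM and to between 43.8 and 115 CPM in ConA. These 3 sums did not overlap between the groups. By gene, 7 of 8 tested NK and ILC1 markers, 3 of 8 neutrophil markers and 5 of 5 erythroid markers had higher values in ConA+SIM. Over all 10509 tested genes 5047 were higher and 5462 lower. In 4 of the NK and ILC1 markers (50.0%), 2 neutrophil (25.0%) and 3 erythroid markers (60.0%) all ConA+SIM values lay above all ConA values. The reverse held for 0, 1 (12.5%) and 0, beside 9.18% above and 8.57% below over all tested genes. The edgeR test called 1 erythroid marker higher. None of the genes of these lists is among the 10. In the other direction, 14 of 14 sinusoidal endothelial markers and 10 of 12 Kupffer cell, macrophage and monocyte markers had lower values in ConA+SIM. Their medians were -0.725 and -1.05, but both sums overlapped between the groups. The endothelial sum was 2563 CPM in ConA replicate 2, against 471 and 872 CPM in ConA replicates 1 and 3. The macrophage sums of ConA+SIM replicates 1 and 3, 1843.5 and 1814 CPM, exceeded the 1435 and 1341 CPM of ConA replicates 2 and 3. The NK cell marker Ncr1 and the neutrophil marker Ly6g were at 0 in all 6 libraries. B and plasma cell markers summed to 590.5, 682 and 1064 CPM in ConA+SIM and to 133, 1524 and 269 CPM in ConA. Dendritic cell markers summed to 1675.5, 2469 and 2168 CPM in ConA+SIM and to 1745, 3627 and 2153 CPM in ConA. Siglech, a marker of plasmacytoid dendritic cells, which carry Nrp1, had 78.3, 144 and 133 CPM in ConA+SIM. Its ConA values were 15.4, 53.1 and 25.6 CPM. Over the 14 dendritic cell markers, 8 log2 fold changes were negative and 6 positive, with a median of -0.295. In 3 of the 14, Siglech included, every ConA+SIM value was above every ConA value, and in 1 the reverse held. These were 21.4% and 7.14% of the list, beside 9.18% and 8.57% of all tested genes. Markers of CD8 T cells, ILC2 and hepatocytes summed to at most 54.1, 476 and 341 CPM, and mesenchymal markers to at most 38.1 CPM, with at least 7 of 9 at 0 in each library. Of the ILC2 markers, Il1rl1, Areg, Klrg1, Gata3 and Rora are also on the effector or Foxp3 partner lists. Rora alone had 292 CPM in ConA+SIM replicate 2, so the ILC2 sum is not particular to ILC2. The part of any of these cells in the levels of Il10, Nrp1 and the other genes was not tested.

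**Figure D5:**
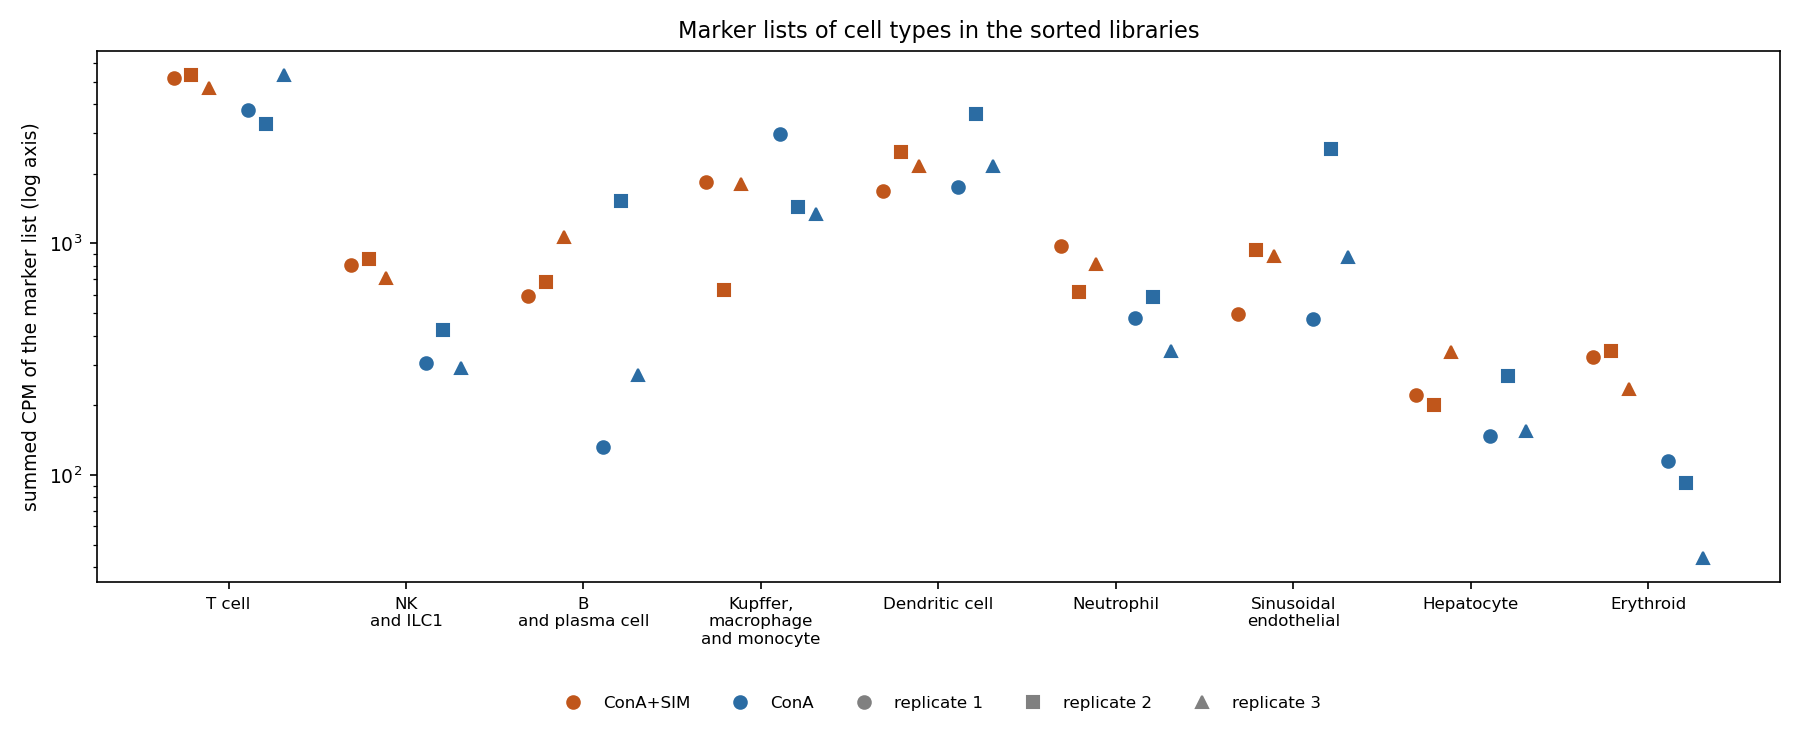
Summed CPM of 9 marker lists (y axis, log) in each of the 3 ConA+SIM and 3 ConA libraries. The NK and ILC1, neutrophil and erythroid sums of all ConA+SIM libraries lie above those of ConA, and the sinusoidal endothelial sum is highest, at 2563 CPM, in ConA replicate 2.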

How the data were processed

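Gene counts of 6 RNA-seq libraries were used as deposited by the authors, in 1 table of raw counts with 23505 gene rows, of which 10278 held no count. Per the submitters' processing notes, reads were aligned with HISAT2 2.1.0 to GRCm38; for the counting tool, its annotation and its use of strand and of multi-mapping reads, nothing is given in the sources used here. Groups were taken from the labels. Genes passing edgeR's filterByExpr (10509) were scaled by TMM and tested with edgeR 4.0.16 (R 4.3.3) quasi-likelihood tests with robust settings, with Benjamini-Hochberg adjustment over all tested genes and a threshold of 0.05. CPM were computed from the counts and each library's total over the tested genes, multiplied by its TMM factor from edgeR. Standard errors were derived from the F statistic, and intervals are 95% intervals. A count of 0 allows up to 3 counts, which covers counting error only. Transcript lengths (GENCODE M21, 1 transcript per gene) matched 98.4% of tested genes. Promoter windows came from RefSeq (GRCm38.p6), with 7 windows found for 6 of the 10 genes. The procedure was run on simulated counts with a much smaller spread between replicates than these data. That run therefore does not show how the procedure performs at the spread seen here. The alternatives were RLE scaling, DESeq2 1.42.0, no filter, at least 5 CPM in 3 libraries, voom of limma 3.58.1 (with and without sample quality weights), a replicate block, length offsets (lowess span 0.3) and each library left out. Leaving out both replicates numbered 2 was added after seeing the data.

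The 10 genes and all lists were chosen with earlier results of these data known. The named genes were all 10, up to 4 genes of each pathway list with the smallest unadjusted p, a set of receptors and factors named whatever their p (Ctla4, Icos, Tigit, Ikzf1, Ikzf3, Il2rb, Il2rg, Stat5a, Stat5b, Tgfb1 and Il10ra), Cd4 and Cd3e. Genes whose groups do not overlap were named after their values were seen.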

Additional observations from a re-analysis of the deposited data

How the results depend on the processing

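Over all tested genes, 57 were higher and 0 lower in ConA+SIM by edgeR. The number higher was 356 by DESeq2, 108 by limma-voom, 110.0 with sample quality weights and 0 with length offsets or with both replicates numbered 2 left out, and it ran from 0 to 3 when 1 library was left out. The number lower was 1 with RLE scaling and with no filter, 199 by DESeq2, 7 by limma-voom and 4 with weights. Among the 10 genes the number called was 0, and 1 by DESeq2 (Il10), which gave no adjusted p for Foxp3 and Lrrc32. Of 133 values recomputed for the 9 tested genes, 9 changed sign. Foxp3 was 2.06 by limma-voom and 1.602 with weights, and from -1.36 to -0.16 with 1 library left out. Izumo1r was -0.18 with length offsets and -0.14 without both replicates numbered 2. With 1 library left out, Izumo1r ran from -0.19 to 0.32, Lrrc32 from -0.10 to 0.57, Capg from -0.465 to 0.074, Cd3e from -0.68 to 0.16, Icos from -0.20 to 0.65, Il2rb from -0.28 to 0.31 and Stat5a from -0.46 to 0.20. Il2rb was 0.004 with RLE scaling, 0.004 by DESeq2 and 0.22 with length offsets, and Stat5a was 0.036 with length offsets. With the replicate block, 0 genes were called higher and Foxp3 was 0.54; deviations of same-numbered libraries correlated at 0.011, 0.009 and 0.033, so the numbers were not taken as pairs. The cause of these changes was not tested. The spread between replicates, with a biological coefficient of variation of 1.12 over all genes, and genes at 0 in single libraries limit what 3 samples a group can show.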
